A study of Mus musculus with 2 samples.

Results

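The 10 genes described here belong to the unfolded protein response, the program by which a cell adjusts to unfolded protein in the endoplasmic reticulum (ER). They are Ern1, Atf6, Xbp1, Atf4, Ddit3, Hspa5, Hsp90b1, Calr, Dnajb9 and Herpud1. They were chosen by gene symbol from textbook knowledge of the pathway, with earlier results of these data already known. All 10 are among the 24346 symbols listed for each library. RNA was sequenced from GFP+CD4+ cells of FDG mice (genotype Foxp3-DTR-GFP), in which GFP and the diphtheria toxin receptor are made from the Foxp3 locus, so that GFP marks Tregs. The mice were 10 to 16 weeks old and received 50 μg of bleomycin (BLM) into the trachea, which injures the lung and leads to fibrosis. On day 15 the cells were sorted from spleen and from lung, and cells of 3 mice were pooled into 1 library per tissue. Both libraries thus carry the same reporter allele and the same treatment, and no untreated mice were part of the comparison. With 1 library per tissue there is no replicate error and no p-value, and every difference below is a difference between these libraries.

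ER-resident sensors start the response. IRE1 (gene Ern1) is a kinase and endoribonuclease that cuts Xbp1 mRNA, after which an unconventional splicing step lets the mRNA encode the active transcription factor XBP1. ATF6 is a membrane-bound transcription factor that is released by proteases in the Golgi, and PERK (gene Eif2ak3) phosphorylates the initiation factor eIF2α, which favours translation of Atf4 mRNA. ATF4 in turn activates Ddit3, which encodes CHOP. The response raises ER chaperones and the machinery that returns misfolded proteins to the cytosol for degradation, and in lymphocytes it is best known from antibody-secreting plasma cells. Gene-level FPKM do not separate spliced from unspliced Xbp1 mRNA, nor do they measure the protein of Atf4 or the cleavage of ATF6, which are the steps at which these factors are mainly controlled.

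ATF6 and XBP1 act through the ER stress response element (ERSE), which consists of CCAAT, 9 further bases and CCACG. A shorter form, ERSE-II, consists of ATTGG, 1 further base and CCACG. Promoter windows from 250 bases before to 50 bases after the gene start were available from RefSeq (GRCm38.p6) for 9 of the 10 genes, all but Atf6, and were searched on both strands for exact matches. The chaperone genes Hspa5, Hsp90b1 and Calr held an ERSE and Herpud1 held an ERSE-II. These are shown because genes that carry such elements differed in direction between lung and spleen at the deposited scale. Capitals mark the fixed bases, and 5 bases of flank are given on each side in lower case.
Hspa5 ERSE: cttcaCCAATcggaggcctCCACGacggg
Hsp90b1 ERSE, nearer the gene start: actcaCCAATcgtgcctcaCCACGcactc
Hsp90b1 ERSE, farther from the gene start: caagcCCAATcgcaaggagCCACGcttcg
Calr ERSE: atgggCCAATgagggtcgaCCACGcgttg
Herpud1 ERSE-II: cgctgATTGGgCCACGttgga

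Distances are counted from the RefSeq gene start of the promoter table, which is not the start of the GENCODE M21 spans given for the genes further on. Within those spans, the Hspa5 element lies inside the gene and the others lie before it. The Hspa5 element lies at chr2:34772025-34772043 on the plus strand, which is the strand of the gene, 47 to 65 bases before the RefSeq start. The Hsp90b1 elements lie at chr10:86705533-86705551 on the plus strand, opposite to the gene, and at chr10:86705638-86705656 on the minus strand, 89 to 107 and 194 to 212 bases before the start. The Calr element lies at chr8:84847075-84847093 on the plus strand, opposite to the gene, 144 to 162 bases before the start. The Herpud1 element lies at chr8:94386377-94386387 on the plus strand, the strand of the gene, 42 to 52 bases before the start. Of all 32851 windows, 0.119% held an ERSE and 0.0365% held an ERSE-II. Hspa5 also held 1 match to the UPRE, searched as TGACGTG followed by A or G, at 150 to 157 bases before the start, and 1.12% of all windows held one. Herpud1 also held 1 match to the CARE, the element of ATF4 and C/EBP factors, searched as TGATG, 1 further base and AA, at 105 to 112 bases before the start, and 3.97% of all windows held one. No match in these genes overlapped another. The windows of Xbp1, Ddit3, Atf4, Ern1 and Dnajb9 held none of these strings, which says only that the letters are not within this window.

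The deposited values are FPKM, which by definition scale the fragments of a gene by exon length and by the fragments mapped in the library. Whether a further scaling between the libraries was applied is not given in the sources used here. Low FPKM stepped in whole reads, so that reads behind each value could be estimated, in all 9648677 for spleen and 12634379 for lung where a transcript length was known. The estimates give intervals for counting error only, which do not cover variation between mice or the PCR copies of the amplified cDNA. Foxp3 had 18.7 FPKM in spleen and 41.8 in lung, and Cd4 at 195 and 179. Genes of other cells were present as well. Their values are given beside the results they touch, and in bulk RNA fewer cells of a type and less RNA per cell cannot be told apart. The lung was digested with enzymes for 1 h at 37 °C, and the preparation of the spleen is not described in the sources used here, so the effects of tissue and of preparation cannot be told apart.

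**Figure D1:**
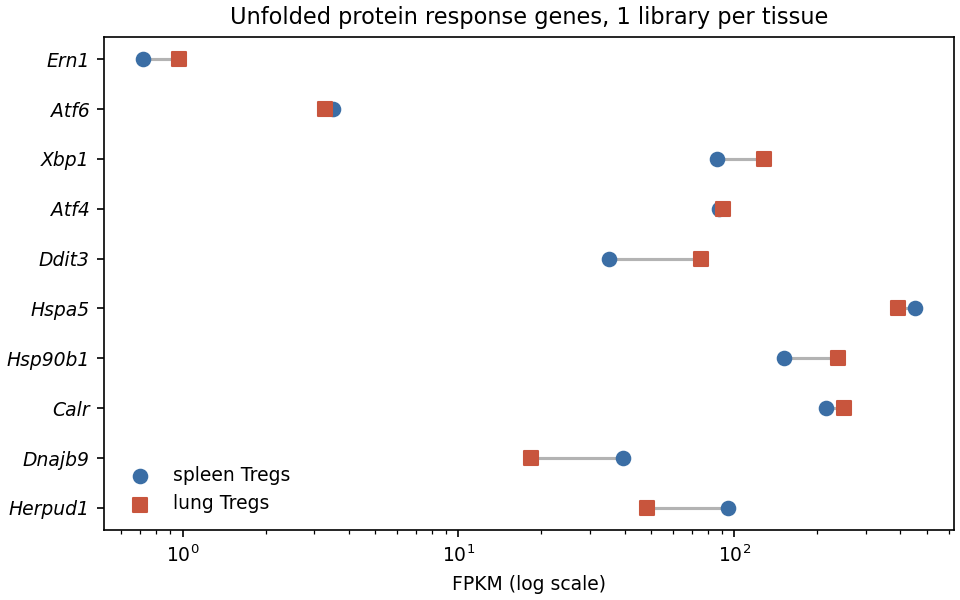
FPKM of the 10 genes in the splenic library (blue circles) and the lung library (red squares) on a log axis, with a grey line joining the values of each gene. Ern1 and Atf6 lie under 4 FPKM in both libraries, whereas the other 8 genes lie between 18.4 and 453 FPKM.

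The sensors were transcribed at low levels in both tissues. Ern1 had 0.717 FPKM in spleen and 0.970 in lung, about 50.1 and 76.9 reads. Its ratio of lung to spleen was 1.35, and the 95% counting interval, from 0.938 to 1.98, includes equal levels. Atf6 had 3.52 FPKM in spleen and 3.29 in lung, a ratio of 0.934 with a counting interval of 0.786 to 1.11. Eif2ak3, the PERK gene, which was followed as a further pathway gene, was likewise low, at 5.04 FPKM in spleen and 4.20 in lung. A difference between the tissues was thus not detectable at this depth for Ern1 (chr11:106394650-106487852, minus strand) and Atf6 (chr1:170704674-170867771, minus strand).

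The transcription factors downstream of the sensors were more abundant and differed from each other in their ratios. Atf4 lies at chr15:80255184-80257541 and Xbp1 at chr11:5520659-5525893, both on the plus strand. Atf4 had 88.1 FPKM in spleen and 90.9 in lung, and its ratio of 1.03 had a counting interval of 0.959 to 1.11. Xbp1 had 86.5 FPKM in spleen and 128 in lung, 1.48-fold higher in lung with a counting interval of 1.39 to 1.57. Ddit3, the CHOP gene, had 35.1 FPKM in spleen and 75.7 in lung. It was the only member more than 2-fold higher in lung, at 2.16-fold with a counting interval of 1.86 to 2.51, and moved from rank 2883 to rank 1575 among all genes by FPKM. Of the 4495 genes with a mean of at least 20 FPKM over the libraries, 8.59% had a ratio as high as that of Ddit3 or higher, and 24.0% had one as high as that of Xbp1.

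At 890 nt, the Ddit3 transcript is the shortest of the members, and in these libraries short transcripts had higher ratios than long ones. Among genes with a mean of at least 20 FPKM, the median log2 ratio was 0.51 for 654 genes under 1000 nt, 0.25 from 1000 to 2000 nt, 0.05 from 2000 to 3000 nt and -0.17 for 1145 genes of 3000 nt or longer. In the shortest class 20.2% of genes were more than 2-fold higher in lung. Relative to the median of its length class, a comparison added after the values had been seen, Ddit3 was 1.52-fold higher in lung, and no member passed 2-fold upward. The span of Ddit3 (chr10:127290774-127296288, plus strand, GRCm38) shares 68 bases at its 3′ end with the span of Mars on the minus strand. The cDNA method does not mark strand. Mars had 34.2 FPKM in spleen and 30.1 in lung.

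Genes of myeloid, epithelial and stromal cells were higher in the lung library, as was Ddit3, and their part in its value was not tested. All 10 macrophage genes were higher in lung, summing to 510 FPKM in spleen and 26601 in lung, with Lyz2 at 376 and 24947. A single gene thus made up most of that sum. All 5 neutrophil genes were higher, with sums of 425 and 1200 FPKM and S100a8 at 276 and 804. The 8 genes of alveolar and airway epithelium summed to 23.4 and 3204 FPKM, 5 of them at 0 in spleen, with Scgb1a1 at 1.48 and 3021 and Napsa at 21.9 and 35.8. Most fibroblast and epithelial markers were therefore near 0 in spleen. The 7 fibroblast genes summed to 0.320 and 164 FPKM, 3 of them at 0 in spleen, with Mgp at 0 and 116 and Col1a1 at 0.129 and 5.94. The 4 endothelial genes summed to 55.0 and 38.6 FPKM, 2 of them higher in lung, with Pecam1 at 54.8 and 31.7. The 10 T cell genes summed to 4576 FPKM in spleen and 4375 in lung, 7 of them lower, with Cd2 at 912 and 977 and Cd3g at 902 and 1103. Actb was at 1325 and 1242 FPKM.

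The ER chaperones were the most abundant members. Hspa5, which encodes BiP, the HSP70 chaperone that binds unfolded chains and holds the sensors inactive, had the highest FPKM of the 10 genes in each library. It had 453 FPKM in spleen and 392 in lung, rank 202 and rank 336 of all genes, and its ratio was 0.867 with a counting interval of 0.844 to 0.890. Hsp90b1, which encodes the ER HSP90 chaperone GRP94, a folding factor of integrins and Toll-like receptors, had 152 FPKM in spleen and 238 in lung. It was 1.57-fold higher in lung with a counting interval of 1.51 to 1.63, and 19.9% of genes with a mean of at least 20 FPKM had a ratio as high. Calr, which encodes calreticulin, a lectin chaperone of glycoproteins that also buffers calcium, had 216 FPKM in spleen and 250 in lung, a ratio of 1.16 with a counting interval of 1.11 to 1.20. Hspa5 lies at chr2:34771970-34777547 on the plus strand, Hsp90b1 at chr10:86690209-86705509 on the minus strand and Calr at chr8:84841850-84846934 on the minus strand. The span of Hsp90b1 shares 4598 bases with the pseudogene 1810014B01Rik on the other strand, which had 3.55 FPKM in spleen and 1.74 in lung. At the deposited scale, the genes that share the ERSE lay on both sides of equal levels, Hspa5 slightly lower and Hsp90b1 and Calr higher in lung. Calr was lower after rescaling to TPM. After setting the median of T cell genes equal, Hspa5 was at a log2 ratio of -0.004, next to equal levels.

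The members with the lowest ratios act on misfolded protein. Dnajb9 encodes ERdj4, a J-domain co-chaperone of BiP that is a target of XBP1 and feeds proteins to degradation. It had 39.5 FPKM in spleen and 18.4 in lung, 2.15-fold higher in spleen with a counting interval of 1.92 to 2.40. Herpud1 encodes an ER membrane protein of the degradation complex. It had 94.5 FPKM in spleen and 48.1 in lung, 1.97-fold higher in spleen with a counting interval of 1.82 to 2.13. Among genes with a mean of at least 20 FPKM, 3.56% had a ratio as low as that of Dnajb9 or lower, and 4.74% one as low as that of Herpud1. Both transcripts, of 2461 and 1952 nt, belong to length classes with a median above 0, and relative to these medians the genes were 2.22-fold and 2.33-fold higher in spleen. Dnajb9 lies at chr12:44205559-44210326 on the minus strand and Herpud1 at chr8:94386438-94395377 on the plus strand. The span of Herpud1 shares 535 bases with that of the antisense gene Gm15890.

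Markers of secretory cells moved with Dnajb9 and Herpud1, and their part in these values was not tested. The summed levels of plasma cell and exocrine pancreas genes were higher in the splenic library. The 6 plasma cell genes summed to 120 FPKM in spleen and 45.5 in lung, and 4 of 6 were lower in lung. Jchain was at 67.5 and 11.4 FPKM, and Sdc1, which encodes the plasma cell marker CD138, went the other way at 0.508 and 2.42. Tnfrsf17 was at 0.639 FPKM in spleen, about 4.02 reads, and was listed at 0 in lung. Its counting interval includes equal levels. Tnfrsf13b, the highest in lung, was at 21.5 and 22.4. The 10 pancreas genes summed to 215 FPKM in spleen and 3.25 in lung, with 7 of them at 0 in lung. Cela2a was the highest in spleen at 50.02 FPKM and was listed at 0 in lung, and Cela1 was at 30.5 and 3.12. The 8 B cell genes summed to 271 and 134 FPKM, all lower in lung, with Cd79b at 90.4 and 59.7.

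**Figure D2:**
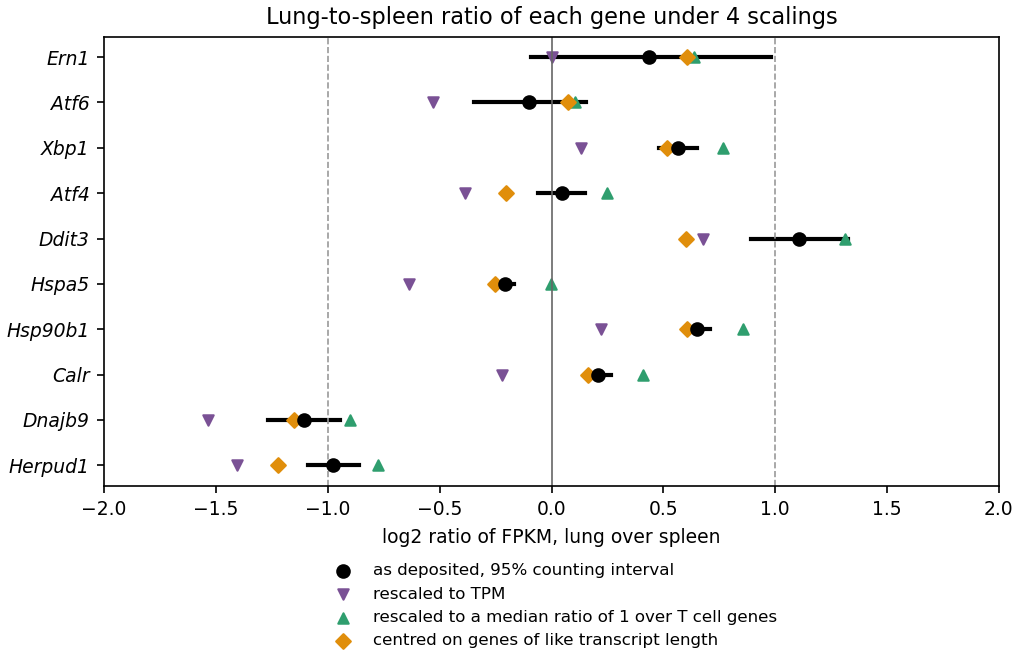
The log2 ratio of FPKM of lung over spleen for each gene, with black circles and bars for the deposited values and their 95% counting intervals, purple triangles after rescaling to TPM, green triangles after setting the median of T cell genes to 0 and orange diamonds after centring on genes of like transcript length. Dashed lines mark 2-fold. Dnajb9 and Herpud1 stay left of 0 and Ddit3, Hsp90b1 and Xbp1 stay right of 0 under all 4, whereas Calr, Atf4 and Atf6 change sides.

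Of the 10 genes, 9 had a mean of at least 1 FPKM, all but Ern1. Of these, 1 was more than 2-fold higher in lung, where 16% of all 11421 genes at that level were, and 1 was more than 2-fold lower, where 13.7% of all genes were. At a mean of at least 20 FPKM, where counting error is smaller, 8 members were present. Of these, 1 was more than 2-fold higher, beside 10.3% of 4495 genes, and 1 was more than 2-fold lower, beside 4.49%. With 1 gene in each direction, the number of members past 2-fold is no result about the pathway. The median log2 ratio of the 9 members was 0.05, beside 0.03 for all genes. In the same level range the spread of all genes was wide, with a robust SD of log2 ratios of 0.61 at 20 to 100 FPKM and 0.52 at 100 FPKM or more, which exceeded the width of the counting interval of each of the 8 members there.

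The direction of the smaller differences depended on the scaling between the libraries. The deposited FPKM summed to 599633 in spleen and 808853 in lung. Rescaling both to equal sums (TPM) gave a median log2 ratio over all genes of -0.40 in place of 0.03, and changed the share of all genes past 2-fold from 16% higher and 13.7% lower to 11.4% and 24.6%. The log2 ratio was then 0.68 for Ddit3, 0.22 for Hsp90b1, 0.13 for Xbp1, -0.22 for Calr, -0.39 for Atf4, -0.64 for Hspa5, -1.41 for Herpud1 and -1.54 for Dnajb9. Setting the median of 10 T cell genes equal instead raised all log2 ratios by 0.20 and gave 20% of genes higher and 10.5% lower. With it, the log2 ratio was 1.31 for Ddit3, -0.004 for Hspa5, -0.77 for Herpud1 and -0.90 for Dnajb9. Such rescaling shifts all genes alike and keeps their order, and across these settings the direction changed for Calr, Atf4 and Atf6.

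**Figure D3:**
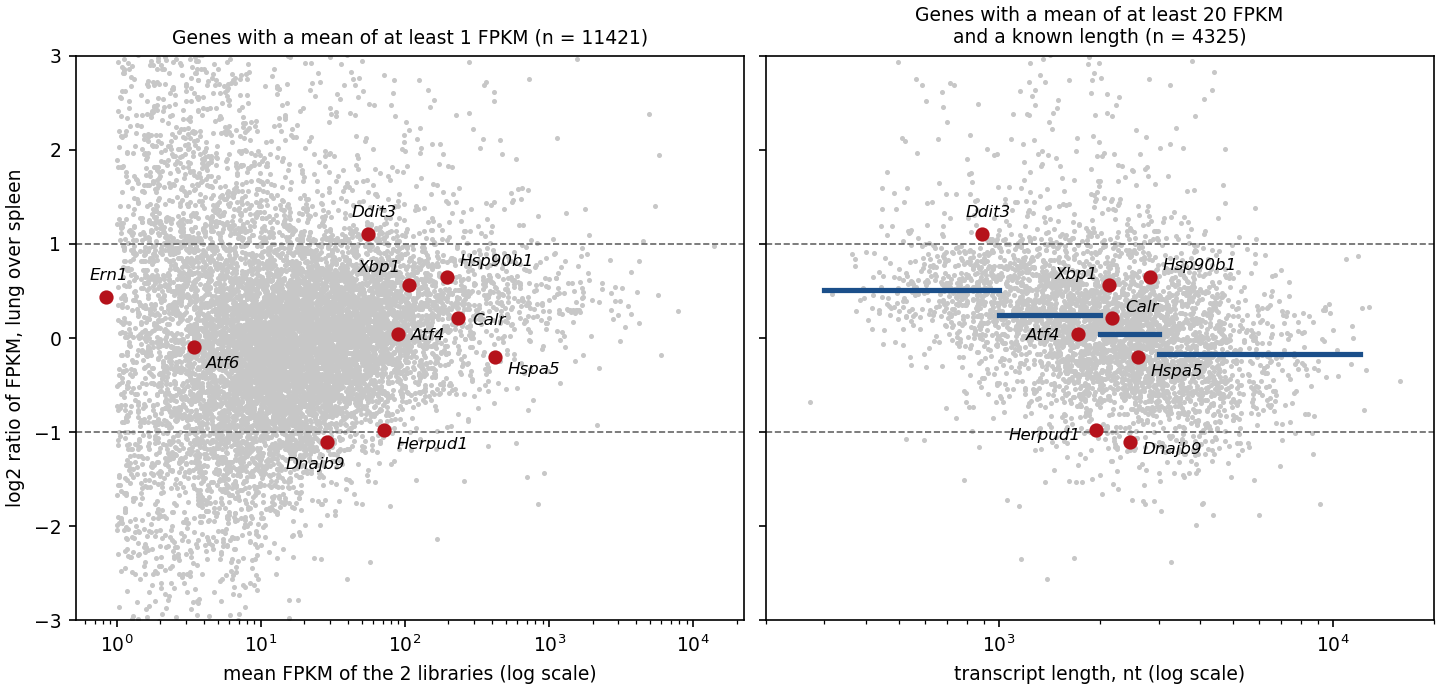
The log2 ratio of FPKM of lung over spleen against the mean FPKM (left, 11421 genes) and against transcript length (right, 4325 genes with a mean of at least 20 FPKM), on log x axes, with all genes in grey and the members in red. Dashed lines mark 2-fold and blue bars the median of each length class, from 0.51 down to -0.17. The y axis ends at 3 in either direction, beyond which 979 and 162 genes lie, and Atf6 and Ern1 are under 20 FPKM and appear only on the left.

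Ratios of genes within a library do not depend on the scaling between libraries, but they keep the trend with transcript length. Ddit3 stood at 0.398 of Atf4 in spleen and at 0.832 in lung, so that the CHOP gene was 2.09-fold higher relative to its activator in lung. As deposited, the log2 ratios of lung over spleen were 1.11 for Ddit3, 0.05 for Atf4 and -1.10 for Dnajb9. Relative to the medians of their length classes they were 0.60, -0.20 and -1.15, so that Ddit3 lay closer to both other genes. Dnajb9 stood at 0.0872 of Hspa5 in spleen and at 0.0468 in lung, 1.86-fold lower in lung relative to the chaperone it assists. Herpud1 stood at 0.209 of Hspa5 in spleen and 0.123 in lung. Xbp1 had 121 times the FPKM of Ern1 in spleen and 132 times in lung. Ern1 rested on about 50.1 and 76.9 reads, so this proportion is imprecise. The widest change was that of Ddit3 against Dnajb9, from 0.889 in spleen to 4.12 in lung, a pair chosen after its values had been seen. Within the chaperones, Hsp90b1 stood at 0.335 of Hspa5 in spleen and at 0.607 in lung, also chosen after the values were known.

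The ER chaperones were set beside their relatives in other compartments. Hspa8, the constitutive cytosolic HSP70, had 1435 FPKM in spleen and 1924 in lung, so that Hspa5 stood at 0.315 of Hspa8 in spleen and 0.204 in lung. Hsp90ab1, the constitutive cytosolic HSP90, was at 647 and 734 FPKM, and Hsp90b1 stood at 0.234 of it in spleen and 0.325 in lung. BiP and GRP94 mRNA thus shifted in opposite directions relative to their cytosolic relatives. At the deposited scale, 7 of the 8 cytosolic and mitochondrial chaperones were higher in lung and none passed 2-fold, with a median log2 ratio of 0.31. Of all 4495 genes with a mean of at least 20 FPKM, 2644 were higher in lung. Past 2-fold were 10.3% of them upward and 4.49% downward. Dnajb1, a heat-inducible HSP40, had the highest ratio at 81.2 and 126 FPKM. Dnaja1 was at 111 and 153 FPKM, Trap1 at 48.2 and 61.2, Hspd1 at 65.2 and 78.7 and Hsp90aa1 at 123 and 130. Hspa9, the mitochondrial HSP70, was lower in lung, at 77.6 FPKM in spleen and 60.0 in lung.

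Beyond the members, 128 further genes of ER folding, translocation, degradation and stress signalling were followed. Their median log2 ratio was 0.11 over the 122 genes with a mean of at least 1 FPKM, of which 11 were more than 2-fold higher and 5 more than 2-fold lower in lung, beside the 16% and 13.7% of all genes. This median was -0.33 after rescaling to TPM, so that the directions given for groups and for genes with small differences hold at the deposited scale.

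Among the sensors and regulators, 16 of 17 had a mean of at least 1 FPKM, with a median log2 ratio of 0.00. None was more than 2-fold higher, beside 16% of all genes at that level, and 1 was lower, beside 13.7%. The lower gene was Creb3l2, an ATF6-related factor, at 2.76 FPKM in spleen and 1.23 in lung. Ern2, the IRE1 paralog of mucosal epithelium, was listed at 0 in both libraries. Mbtps1, the site-1 protease that releases ATF6 and sterol regulators, had 31.7 FPKM in spleen and 16.2 in lung. Traf2, an adaptor that binds activated IRE1, was at 40.0 and 23.7. Ppp1r15a, which encodes GADD34, the phosphatase subunit that reverses phosphorylation of eIF2α, was the most abundant of the group, at 336 FPKM in spleen and 244 in lung, and Ppp1r15b, its constitutive relative, was at 17.6 and 19.4. The highest ratios of the group belonged to Zbtb8os, which encodes archease, a cofactor of the ligase that joins Xbp1 exons, at 58.9 and 117 FPKM, and to Creb3, at 49.8 and 81.7. The arm from PERK thus held genes on both sides, with Ddit3 higher and Ppp1r15a, a target of CHOP, lower in lung at the deposited scale.

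Targets of ATF4 and CHOP and genes of the same amino acid response numbered 30, of which 25 had a mean of at least 1 FPKM. Their median log2 ratio was 0.00, with 6 genes more than 2-fold higher and 1 lower. Of all genes at that level, 16% were more than 2-fold higher and 13.7% lower. From a mean of 10 FPKM, the highest ratios belonged to Atf3, a stress-induced transcription factor, at 5.67 FPKM in spleen and 87.7 in lung, Nupr1, a stress-induced chromatin protein, at 2.31 and 25.8, and Cebpb, which encodes C/EBPβ, the dimer partner of CHOP, at 47.0 and 272. The macrophage genes were higher in the same library, with sums of 510 and 26601 FPKM, and their part in these values was not tested. The others past 2-fold were Gpt2 at 0.399 and 3.49 FPKM, Cebpg at 6.95 and 18.2 and Sesn2 at 3.31 and 8.75. Of the 25 genes, 12 were higher and 13 lower in lung, and known targets of ATF4 lay on both sides. Slc3a2 was higher, at 55.7 FPKM in spleen and 104 in lung, as was Mthfd2 at 38.1 and 54.8. Asns, asparagine synthetase, had 2.75 FPKM in spleen and 2.72 in lung. Trib3, a pseudokinase induced by ATF4 and CHOP, was at 2.36 and 1.75, and Phgdh, of serine synthesis, at 102 and 75.8. The counting intervals of Asns, 0.663 to 1.47, and Trib3, 0.465 to 1.17, include equal levels. The tRNA synthetase gene Cars was at 16.2 and 11.9 FPKM, and Eif4ebp1 at 24.1 and 17.7. Chac1 was at 0.283 FPKM in spleen and Stc2 at 0.122, about 4.20 and 4.71 reads, and both were listed at 0 in lung. Vldlr was listed at 0 in spleen and at 0.0106 FPKM in lung. Bbc3, which encodes the death protein PUMA, was at 5.73 and 1.97 FPKM.

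**Figure D4:**
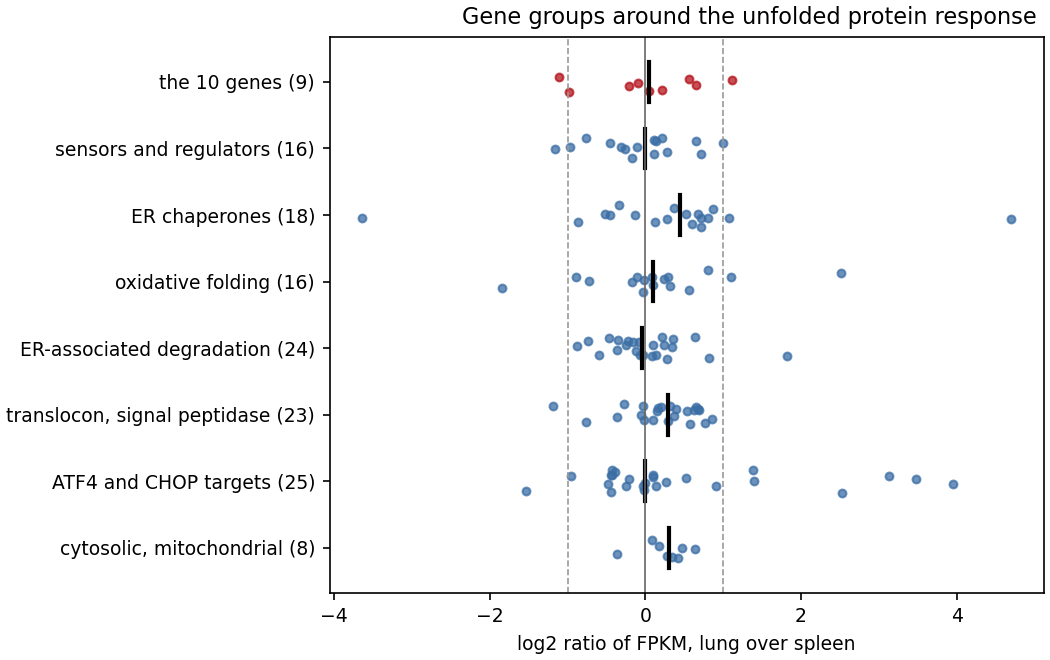
The log2 ratio of FPKM of lung over spleen for each gene with a mean of at least 1 FPKM, by group, with the number of genes plotted in parentheses, the 10 genes of the report in red, medians as black bars and 2-fold as dashed lines. The medians lie between -0.05 and 0.45, and the single highest genes are Serpinh1 among the chaperones at 4.70 and Atf3 among the ATF4 and CHOP targets at 3.95. Serpinh1 rests on about 1.96 reads in spleen.

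All 18 further ER chaperone genes had a mean of at least 1 FPKM, and their median log2 ratio of 0.45 was the highest of the pathway groups, and was 0.28 relative to length classes and 0.01 after rescaling to TPM. Of these 12 were higher in lung, beside 5882 of all 11421 genes with a mean of at least 1 FPKM. Ppib, the ER cyclophilin, had 129 FPKM in spleen and 272 in lung, Fkbp2 at 22.2 and 40.5, and Sdf2l1, a BiP cofactor, at 29.2 and 50.8. Dnajc3, which restrains PERK, was lower at 35.8 and 26.1 FPKM, as were Uggt1, the glycoprotein folding sensor, at 24.7 and 19.6, and Dnajb11, a J-domain partner of BiP, at 70.4 and 64.1. Serpinh1, the collagen chaperone of fibroblasts, had the highest ratio, from 0.0954 to 2.61 FPKM, and Fkbp11, abundant in plasma cells, had the lowest, from 2.01 to 0.161 FPKM. The fibroblast genes summed to 0.320 and 164 FPKM and the plasma cell genes to 120 and 45.5, and their part in the values of Serpinh1 and Fkbp11 was not tested.

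Genes of oxidative folding, which form disulfide bonds, had a median log2 ratio of 0.09 over 16 genes. In lung, 2 were more than 2-fold higher, beside 16% of all genes with a mean of at least 1 FPKM, and 1 was more than 2-fold lower, beside 13.7%. The gene past 2-fold downward was Ero1lb, an oxidase that recharges the isomerases, at 6.65 FPKM in spleen and 1.85 in lung. Upward these were Prdx4 and the isomerase gene Pdia5, the latter at 0.482 and 2.76 FPKM. Pdia3, the partner of calreticulin, was the most abundant at 288 FPKM in spleen and 359 in lung. Prdx4 was at 29.9 and 63.9 FPKM, Pdia6 at 91.1 and 160, and P4hb at 123 and 183, all higher in lung at the deposited scale. Pdia4 was at 121 and 107 FPKM, Tmx1 at 53.1 and 49.3, and Dnajc10 at 21.4 and 13.0.

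The 24 genes of ER-associated degradation, to which Herpud1 belongs by function, had a median log2 ratio of -0.05. None was more than 2-fold lower in lung and 1, Derl3, was more than 2-fold higher, at 1.28 FPKM in spleen and 4.52 in lung. These counts stand beside 13.7% and 16% of all genes with a mean of at least 1 FPKM. Syvn1, the ubiquitin ligase that Herpud1 binds, was at 19.3 and 15.0 FPKM, and Sel1l, its adaptor, at 21.4 and 27.2. Os9, a lectin that delivers glycoproteins to the ligase, was at 46.8 and 33.9 FPKM, Faf2 at 23.2 and 13.9, and Ubxn4 at 25.3 and 30.6. Selk, a selenoprotein of the complex, was the most abundant by mean, with 157 FPKM in spleen and 278 in lung. No gene of this group reached the difference of Herpud1 downward.

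The translocon, signal recognition particle and signal peptidase genes numbered 23, with a median log2 ratio of 0.30 that was 0.11 relative to length classes. Srp14 had 230 FPKM in spleen and 370 in lung, Sec61g at 152 and 274, Srp9 at 84.6 and 144, and Sec11c, the most abundant by the mean of both libraries, at 246 and 365. Srp68 was the only gene of the group past 2-fold, at 31.3 FPKM in spleen and 13.7 in lung. Among all genes with a mean of at least 1 FPKM, 16% were more than 2-fold higher and 13.7% lower. Sec61a1, the channel subunit, was at 95.7 and 78.9 FPKM, and Srpr at 71.1 and 55.2.

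The ERSE grouped genes across these lists. Besides Hspa5, Hsp90b1 and Calr, 6 of the 96 pathway genes with a promoter window held one, namely Canx, Creld2, Derl3, Dnajc3, Pdia6 and Syvn1. Of these 6, 4 were higher and 2 lower in lung, with a median log2 ratio of 0.32. Over all 14 genes of the libraries with an ERSE and a mean of at least 1 FPKM, which include these 9, the median was 0.17, with 8 higher and 6 lower. Genes with an ERSE-II had a median of -0.26 over 8 genes, which include Herpud1 and Dnajb11, and 6 of the 8 were lower in lung. Of all 11421 genes with a mean of at least 1 FPKM, 5882 were higher and 5539 lower. Counts this small are no result about either element.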

How the data were processed

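The authors mapped 75-base single-end reads of SMART-Seq HT and Nextera XT libraries to mm10 with TopHat2 2.1.1, Bowtie2 2.2.8 and SAMtools 0.1.18, and calculated the deposited FPKM with Cuffdiff 2.2.1. The gene annotation and any scaling between libraries are not given in the sources used here.

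Here, values under 0.1 FPKM were set to 0.1, ratios are lung over spleen, and 2-fold served as the threshold. Genes with a mean of at least 1 FPKM, and of at least 20 FPKM, gave the backgrounds. Reads were estimated from lengths of GENCODE M21 transcripts tied to RefSeq (fragments of mean 200, SD 80, shortest 73, with the worth of 1 read taken from the step most genes of at least 1500 nt shared). Of genes with 1 to 10 such reads, 73.6% in spleen and 75.9% in lung came within 0.1 of a whole number. One read at 1 kb was worth 0.0964 FPKM in spleen and 0.0849 in lung. These values differ less between the libraries than the estimated reads, 9648677 and 12634379, do. The deposited FPKM therefore need not be scaled by mapped reads alone. Counting intervals are 95% exact binomial. The worth of 1 read and the recovery of known folds were tested on simulated reads. Those reads were drawn with the same transcript lengths that the estimate uses, and the intervals were not tested.

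The members and lists were chosen with earlier results of these data known. Named are all members, all chaperone relatives, Foxp3, Cd4 and Actb. Of each pathway list these are the 3 highest and 3 lowest ratios from a mean of 10 FPKM, the most abundant gene and genes at 0, and of each cell list the highest gene per library. Eif2ak3, Creb3l2, Cebpg, Sesn2, Gpt2, Asns, Trib3, Bbc3, Serpinh1, Fkbp11, Ero1lb, Pdia5, Sdc1, Derl3, Tnfrsf17, Mars, 1810014B01Rik and Gm15890 were named after their values were seen, as were genes sharing an ERSE. Slc3a2 and Mthfd2 were also named with their values known. Intervals used scipy 1.17.1, tables pandas 2.3.3 and numpy 2.4.6, and plots matplotlib 3.10.9, under Python 3.11.15.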

Additional observations from a re-analysis of the deposited data

How the results depend on the processing

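The members' median log2 ratio of 0.05 became -0.39 after rescaling to TPM and 0.25 after setting the T cell genes equal, and the median of the further pathway genes, 0.11, became -0.33 and 0.31. The count of 1 member past 2-fold upward became 0 after TPM and 0 relative to length classes, 2 at 1.5-fold and 0 at 3-fold. The count of 1 downward became 2 after TPM, after a median ratio of 1 and relative to length classes, 0 after setting T cell genes equal, 2 at 1.5-fold and 0 at 3-fold. The added count is Herpud1, which lies next to the threshold. The range between the highest and lowest member, 2.21, became 1.83 relative to length classes. Floors of 0.01 and 1 FPKM, a pseudocount of 1 FPKM, equal upper quartiles, no filter and a mean of at least 5 FPKM left both counts at 1, and the members' median between 0.04 and 0.13. The length classes were chosen after seeing the data. No paired analysis was possible because each tissue has 1 library, and no library could be left out. Depth limits Ern1 and Atf6 most.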

Other observations

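Further groups near the unfolded protein response were written down after the members' values had been seen. The other kinases of eIF2α, which can reach Atf4 without PERK, differed little. Eif2ak1 had 40.2 FPKM in spleen and 32.4 in lung, Eif2ak2 had 5.43 and 5.20, and Eif2ak4 had 3.75 and 3.40, and the counting intervals of the latter pair include equal levels. Receptors of ER-phagy had a median log2 ratio of 0.05 over 6 genes, 3 higher and 3 lower, with Fam134b at 45.5 and 45.2 FPKM and Tex264 at 32.4 and 47.8.

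Of 12 genes of the COPII coat, which carries cargo out of the ER, 9 were lower in lung, and the median log2 ratio was -0.20. Of all 11421 genes with a mean of at least 1 FPKM, 5539 were lower. More than 2-fold lower were 3 coat genes, beside 13.7% of all genes with a mean of at least 1 FPKM. The share was 25.6% from 1 to 5 FPKM, 15.2% from 5 to 20 FPKM and 5.08% from 20 to 100 FPKM, where Sec24c lies. These 3 genes encode forms of the cargo-binding SEC24 subunit, and a count of this size in a list written after values were seen is no result about that subunit. Sec24b had 18.3 FPKM in spleen and 5.69 in lung, Sec24c at 81.5 and 35.8, and Sec24d at 6.11 and 2.82, whereas Sec24a was at 7.48 and 6.94. Sar1b, the GTPase that starts coat assembly, was at 71.5 and 123 FPKM. The transcripts of these Sec24 genes are long, and genes of 3000 nt or longer had a median log2 ratio of -0.17 among those with a mean of at least 20 FPKM. The part of transcript length in these values was not tested.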
